A study of Mus musculus with 6 samples.

Results

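The MHC class I and immunoproteasome genes described here are 10 genes taken by name from the gene table of an RNA sequencing study of RBMS1 knockdown in adipocytes, namely H2-K1, H2-D1, B2m, Tap1, Tap2, Tapbp, Psmb8, Psmb9, Psmb10 and Nlrc5. All 10 were found, each in 1 row, among the 45706 genes of the table. The cells were 3T3-L1, a fibroblast line from mouse embryos that forms adipocytes in culture, in 3 scrambled control and 3 RBMS1 knockdown samples collected on day 7 of adipogenic differentiation. The control cells (genotype label WT) carried a scrambled shRNA and the knockdown cells (RBMS1KD) an shRNA against Rbms1, both introduced by lentivirus and kept by puromycin selection. Both groups received the same cocktail of IBMX, insulin, dexamethasone and rosiglitazone, so a glucocorticoid and a PPARγ agonist were given to controls and knockdown cells alike. The methods call the samples biological replicates and do not say whether they came from separate transductions, so p-values measure the spread between these samples.

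MHC class I molecules carry short peptides from inside the cell to its surface, where cytotoxic T cells and natural killer cells read them. A heavy chain, in the mouse H2-K1 or H2-D1 among others, pairs with the light chain beta-2 microglobulin, encoded by B2m. The peptides are cut by the proteasome, moved into the endoplasmic reticulum by the transporter made of TAP1 and TAP2, and loaded with the help of tapasin, encoded by Tapbp. Interferon induces the catalytic subunits Psmb8, Psmb9 and Psmb10, which take the places of the constitutive subunits Psmb5, Psmb6 and Psmb7 and turn the proteasome into the immunoproteasome. NLRC5 is a transcriptional coactivator that acts at class I promoters. Fibroblasts and adipocytes express this machinery at a basal level and raise it under interferon.

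The 10 genes lie on 3 chromosomes of GRCm38. H2-K1 (33996017 to 34000347), Tapbp (33915899 to 33929292), Psmb9 (34181987 to 34187764), Tap1 (34187553 to 34197225), Psmb8 (34197721 to 34201454), Tap2 (34203527 to 34216321) and H2-D1 (35262730 to 35267499) are on chromosome 17, in the mouse MHC. B2m is on chromosome 2 (122147686 to 122153083), and Nlrc5 (94434356 to 94527272) and Psmb10 (105935735 to 105938444) are on chromosome 8. Tap1 and Psmb9 are read in opposite directions from RefSeq start sites 226 bases apart.

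The upstream sequences of the heavy chain genes and of B2m are shown because the results turn on the levels of these partner chains. RefSeq sequences of GRCm38.p6 were at hand for the 250 bases before the start site of 8 of the 10 genes, not of Tap2 and Nlrc5. They are the C57BL/6J reference and were not read from 3T3-L1 cells. Letters searched on both strands were GGGATTCCC (the kB site of the class I enhancer), TTTCNNTT (the core bound by interferon regulatory factors), TGACG (the X2 core) and ATTGG (the Y box). In the sequences printed no motif overlaps another. The motifs were present in 0.301%, 21.3%, 17.8% and 33.8% of 32851 upstream windows of the same length. All 4 were present in 0.0122% of the windows, 4 windows that belong to H2-K1, H2-D1 and the nonclassical heavy chain H2-Q7. The stretches below run from the first match to the Y box that follows the X2 core, with the matches in capitals. H2-D1 has a further Y box match nearer to its start site (53 to 49 bases before it), which is not printed. The stretch of H2-K1 is chr17:34000359-34000457 (minus strand, 110 to 12 bases before the start site). That of H2-D1 is chr17:35262924-35263022 (plus strand, 170 to 72 bases before it), and that of B2m is chr2:122147550-122147638 (plus strand, 137 to 49 bases before it). Start sites are those of RefSeq and can differ from the gene ends given above, which come from GENCODE M21. The H2-D1 stretch lies inside the span given above for that gene (35262730 to 35267499).
H2-K1: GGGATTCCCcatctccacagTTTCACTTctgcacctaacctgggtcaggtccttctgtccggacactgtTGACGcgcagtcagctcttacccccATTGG
H2-D1: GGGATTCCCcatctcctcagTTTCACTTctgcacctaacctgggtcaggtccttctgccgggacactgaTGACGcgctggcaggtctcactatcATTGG
B2m: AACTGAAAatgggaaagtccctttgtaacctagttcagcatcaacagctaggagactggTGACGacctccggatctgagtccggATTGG

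The stretches of H2-K1 and H2-D1 were identical at 88 of 99 bases, with the matches in the same order and spacing. The stretch of B2m held the interferon regulatory factor core, the X2 core and the Y box in the same order. It did not hold the letters GGGATTCCC, and other forms of the kB site were not searched. The windows of Tap1 and Psmb9, which share 225 bases, held the X2 core and the Y box, that of Tapbp held the Y box, and those of Psmb8 and Psmb10 held no match.

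Total counts ranged from 3142695 to 11073098. Genes derived from ribosomal RNA took 43.0% of scrambled control replicate 2, the smallest library, and between 8.12% and 17.8% of the others. Levels are given as CPM, counts per 1000000 of the library size, as scaled by edgeR's TMM factor, and an undetected gene could reach between 0.220 and 1.49 CPM in a sample, the level of 3 counts (counting error only). Rbms1, the targeted gene, had 113, 102 and 99.6 CPM in the controls and 49.2, 61.4 and 84.0 in the knockdown samples (log2 fold change -0.69, adjusted p = 0.185 by edgeR, here and throughout its quasi-likelihood test with adjustment over all tested genes by Benjamini and Hochberg). The groups did not overlap, but the gene did not pass the threshold of an adjusted p of 0.1, and did so only without RBMS1 knockdown replicate 3 (log2 fold change -0.92, adjusted p = 0.0708 by edgeR) among the 18 alternatives run. Of 15 leukocyte and MHC class II markers, 7 were at 0 counts in each sample, including Ptprc, Adgre1, Cd3e, H2-Aa, H2-Ab1 and H2-Eb1, and the list summed to between 5.29 and 7.94 CPM in the controls and between 5.46 and 10.6 in the knockdown samples. Only Cd14 and Cd68 could be tested, and their fitted values on the log2 scale were 0.94 and 0.92 (adjusted p = 0.503 and 0.57 by edgeR).

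In the control cells the light chain was the most abundant of the 10 transcripts. Levels of different genes were compared per kilobase of annotated exon, in CPM per kb over the 3 control samples. The exon length takes in all annotated transcripts of a gene, so the values and their order depend on it. It was 2938 bases for H2-K1 and 2579 for H2-D1, whose longest coding transcripts have 1619 and 2102 bases. B2m stood at 546 ± 32.1 (SD, n = 3), Tapbp at 66.2 ± 3.44, H2-K1 at 56.3 ± 4.72 and H2-D1 at 45.1 ± 8.88. Psmb10 (6.99 ± 2.18) and Tap2 (6.51 ± 2.03) came next, followed by Tap1 (1.43 ± 0.203) and Nlrc5 (1.13 ± 0.387). Psmb8 (0.586 ± 0.161) and Psmb9 (0.408 ± 0.471) were lowest. The ranges of the control samples overlapped between the neighbours H2-K1 and H2-D1, Psmb10 and Tap2, Tap1 and Nlrc5, and Psmb8 and Psmb9, and did not overlap between the other neighbours.

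**Figure D1:**
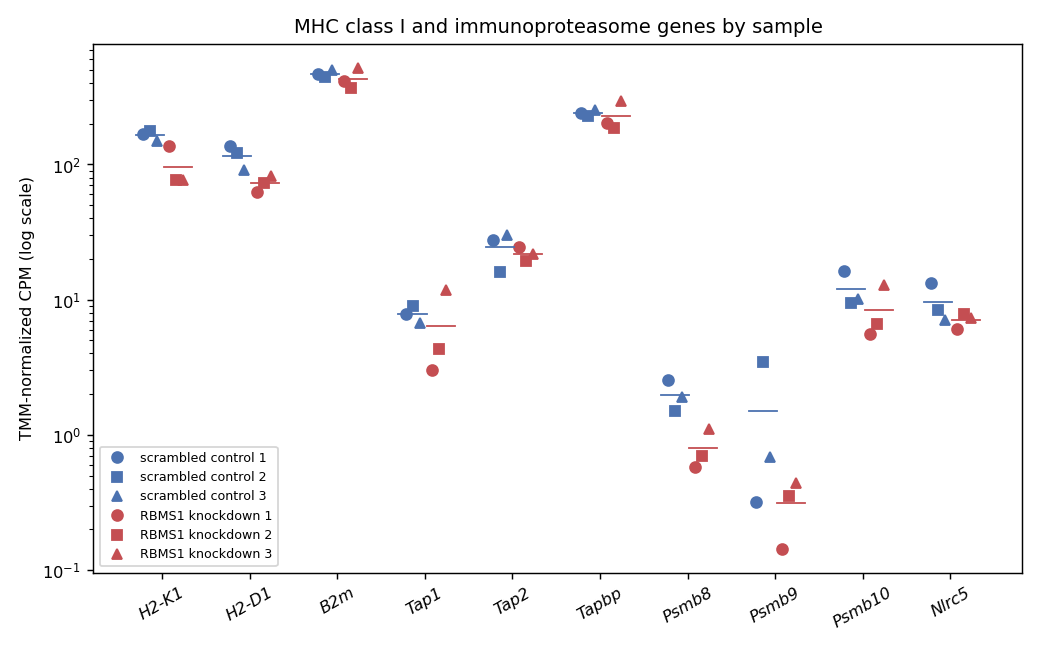
TMM-normalized CPM of the 10 genes in each of the 6 samples on a log axis (blue, scrambled control; red, RBMS1 knockdown; marker shape, replicate number; short lines, group means). The knockdown samples of H2-K1, H2-D1 and Psmb8 lie below every control sample, while those of the other 7 genes overlap with the controls.

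The comparison of knockdown with control cells asks which of these genes changed when Rbms1 was silenced. At an adjusted p of 0.1 or less, edgeR called 0 of the 8 members it tested, and 1.22% of all 11440 tested genes. These were 104 genes lower (0.909% of the tested genes, 74.3% of the calls) and 36 higher in knockdown cells, and 42 of 126 calls, or 33.3%, were lower when libraries were scaled by their size alone. At an unadjusted p under 0.05, 2 members passed, both lower in knockdown cells, where 6.98% of the tested genes passed in that direction and 12.4% in either. These were the heavy chain genes H2-K1 and H2-D1. DESeq2 called the same 2 of the 10 at an adjusted p of 0.1 or less, against 3.2% of the genes it tested, and limma-voom called 0. The groups did not overlap for 2 of the 8 tested members, both lower, while 18.5% of all tested genes had no overlap and 9.55% had every knockdown sample below every control sample. All 8 fitted log2 fold changes were below 0, with a median of -0.36 against 0.0044 over all tested genes. Library sizes alone put the median of all genes 0.37 higher, and with them B2m, Tap1, Tap2 and Tapbp had fitted values above 0.

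H2-K1 (ENSMUSG00000061232), a classical class I heavy chain, had 169, 177 and 150 CPM in the control samples and 136, 76.9 and 76.2 in the knockdown samples. Every knockdown sample lay below every control, and RBMS1 knockdown replicate 1 was nearest to the controls. The log2 fold change was -0.78 (standard error 0.23, 95% interval -1.30 to -0.26 without adjustment for the number of genes), or 58.4% of the control level. It did not pass the threshold in edgeR (adjusted p = 0.199) and passed it in DESeq2 (adjusted p = 0.0815). Without RBMS1 knockdown replicate 1 it passed in edgeR as well, with a log2 fold change of -1.10 (adjusted p = 0.00678), in a fit that called 5.94% of its tested genes, and over all alternatives the adjusted p ranged from 0.00678 to 0.492.

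H2-D1 (ENSMUSG00000073411), the other classical heavy chain listed, had 136, 121 and 91.4 CPM in the controls and 62.4, 73.4 and 82.4 in the knockdown samples. Again no knockdown sample reached the lowest control, here scrambled control replicate 3. The log2 fold change was -0.68 (standard error 0.19, 95% interval -1.10 to -0.26), with an adjusted p of 0.166 in edgeR and 0.0859 in DESeq2 (0.0859 to 0.576 over all alternatives). The order of the knockdown samples differed between the heavy chains, since replicate 1 was the highest for H2-K1 and the lowest for H2-D1.

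Class I heavy chain genes are close copies of each other, and reads that match several of them are shared out by the counting program. In the reference, 16.9% of the stretches of 31 bases in the longest coding transcript of H2-K1 also occur in H2-D1 transcripts, and 23.3% occur in some other H2 gene. For H2-D1 these shares were 12.9% and 23%. All 6 values of both genes were not whole numbers in the table (by more than 1e-06), a mark of reads that were split, as was at least 1 value of 33% of all genes with counts. The split between the copies is uncertain, and the alleles of 3T3-L1 cells, which may differ from the reference strain in this polymorphic region, are not known here. The sum of H2-K1 and H2-D1 does not depend on how reads were split between these 2 genes. It was 306, 298 and 241 CPM in the controls and 199, 150 and 159 in the knockdown samples, 0.601 of the control mean, with no overlap. Over the other 15 H2 heavy chain genes found in the table the sum was 56.7, 59.1 and 42.8 CPM in the controls and 29.9, 32.4 and 48.6 in the knockdown cells, with overlap.

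B2m (ENSMUSG00000060802), the light chain, had 468, 443 and 498 CPM in the controls and 412, 368 and 517 in the knockdown samples. The groups overlapped, and RBMS1 knockdown replicate 3 had the highest value of all 6. The log2 fold change was -0.12 (standard error 0.17, 95% interval -0.51 to 0.27, adjusted p = 0.836 by edgeR). The heavy chains were therefore also compared with their partner inside each library, as counts of H2-K1 plus H2-D1 in percent of the counts of B2m. This ratio was 65.3%, 67.3% and 48.4% in the controls and 48.3%, 40.8% and 30.7% in the knockdown samples, so that the groups were parted by a narrow margin. The knockdown cells had 65.7% of the control ratio (log2 difference -0.61, two-sided exact permutation p = 0.1, the smallest that 3 against 3 samples can give, and 0.2 after adjustment over 4 ratios).

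**Figure D2:**
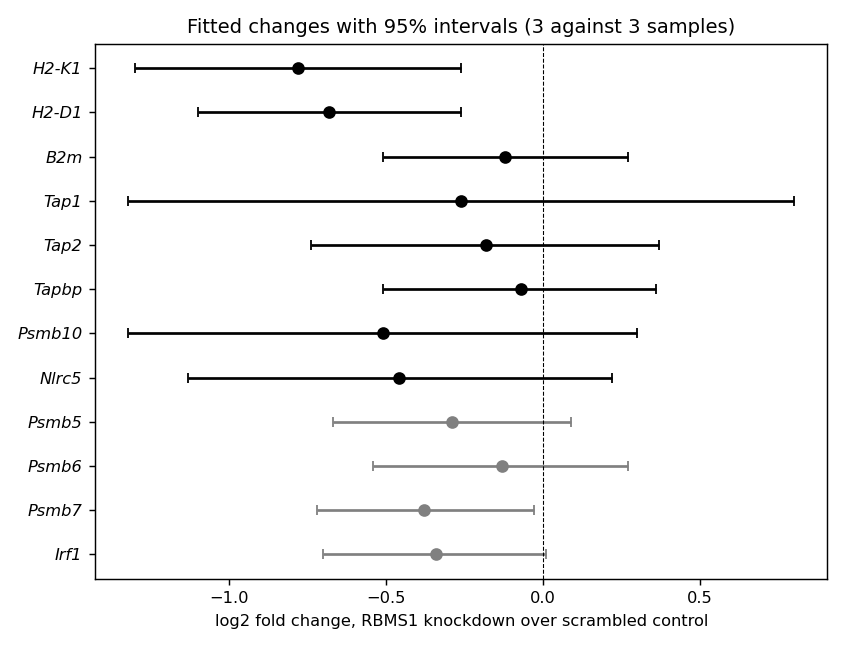
Fitted log2 fold changes of RBMS1 knockdown over scrambled control with 95% intervals that are not adjusted for the number of genes (3 against 3 samples; black, the 8 tested members; grey, the constitutive subunits Psmb5, Psmb6 and Psmb7 and the regulator Irf1). The intervals of H2-K1, H2-D1 and Psmb7 lie below 0, and those of the other genes include 0.

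The genes for peptide transport and loading showed no change past the threshold. Tap1 (ENSMUSG00000037321), a subunit of the peptide transporter, had 7.85, 8.93 and 6.71 CPM in the controls and 3.02, 4.33 and 11.7 in the knockdown samples. RBMS1 knockdown replicates 1 and 2 lay below the controls and replicate 3 above them. The log2 fold change was -0.26 with an interval of -1.32 to 0.80 (standard error 0.47, adjusted p = 0.871 by edgeR). It was -1.07 without RBMS1 knockdown replicate 3 (adjusted p = 0.299 by edgeR) and 0.07 without RBMS1 knockdown replicate 1. Tap2 (ENSMUSG00000024339), the other subunit, had 27.7, 15.9 and 30.3 CPM in the controls and 24.4, 19.4 and 21.9 in the knockdown samples, all within the range of the controls. Its log2 fold change was -0.18 (interval -0.74 to 0.37, adjusted p = 0.814 by edgeR), and with each sample left out it ranged from -0.41, without scrambled control replicate 2, to -0.01, without scrambled control replicate 3. Tapbp (ENSMUSG00000024308), which bridges the transporter and the heavy chain, had 241, 227 and 252 CPM in the controls and 203, 186 and 296 in the knockdown samples. As with Tap1, RBMS1 knockdown replicate 3 was the highest of the 6 samples and the other knockdown samples were the lowest (log2 fold change -0.07, interval -0.51 to 0.36, adjusted p = 0.919 by edgeR). Exons of Tapbp share 904 bases with the antisense gene Gm19412, which had at most 32 counts in a sample, and 149 bases with Zbtb22 on the same strand, which had up to 425 counts. Whether the counting used the strand is not stated.

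Of 13 other genes for peptide loading and trimming, 0 were called by edgeR or limma-voom. Among them 1 had an unadjusted p under 0.05 (12.4% of all tested genes did) and 1 (Calr) was called by DESeq2 (3.2%). Their median log2 fold change was 0.10 (0.21 and 0.17 without scrambled control replicate 3 and RBMS1 knockdown replicate 3), and 11 of the 13 values were above 0. Calr, the chaperone calreticulin that holds the heavy chain during loading, had the lowest value, with 646, 713 and 698 CPM in the controls and 446, 481 and 534 in the knockdown samples (log2 fold change -0.49, standard error 0.16, adjusted p = 0.236 by edgeR). It lies on chromosome 8, as Psmb10 and Nlrc5 do. Tapbpl, a relative of tapasin, had the highest value at 0.52 (interval -0.25 to 1.28), and its samples overlapped.

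The immunoproteasome subunits Psmb8 and Psmb9 were scarce. Psmb8 (ENSMUSG00000024338) had 16, 3 and 11 counts in the controls and 4, 6 and 15 in the knockdown samples, and Psmb9 (ENSMUSG00000096727) had 2, 7 and 4 against 1, 3 and 6. Both failed edgeR's filter on low counts and were not tested with the other members. Psmb8 amounted to 2.56, 1.49 and 1.89 CPM in the controls and 0.575, 0.701 and 1.10 in the knockdown samples. The groups did not overlap, but scrambled control replicate 2, the lowest control, stood at 3 counts, the floor given above. Where genes with 1 CPM or more in 3 samples were kept instead, Psmb8 had a log2 fold change of -1.31 (adjusted p = 0.394 by edgeR). Its levels above reached 1 CPM in each control, but among the knockdown samples only in replicate 3. Without a filter on low counts its log2 fold change was -1.29 (adjusted p = 0.524 by edgeR). Psmb8 did not pass under any alternative that could test it (0.394 to 0.647). Psmb9 had 0.321, 3.47 and 0.688 CPM in the controls and 0.144, 0.351 and 0.440 in the knockdown samples, and its high control mean rested on the 7 counts of scrambled control replicate 2. Without a filter on low counts its log2 fold change was -1.53 (adjusted p = 0.687 by edgeR). In DESeq2 it was -2.03 (adjusted p = 0.607). With 13 counts over the controls and 10 over the knockdown samples, the size of difference that could be detected for Psmb9 was not tested. Its exons share 212 bases with Tap1 on the opposite strand, which had up to 160 counts.

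Psmb10 (ENSMUSG00000031897), the most abundant of the 3 inducible subunits, had 16.2, 9.43 and 10.2 CPM in the controls and 5.61, 6.66 and 12.8 in the knockdown samples. RBMS1 knockdown replicate 3 lay within the range of the controls and the other knockdown samples below it. The log2 fold change was -0.51 (standard error 0.36, interval -1.32 to 0.30, adjusted p = 0.608 by edgeR). It was -0.97 without RBMS1 knockdown replicate 3 (adjusted p = 0.293 by edgeR), and -0.21, -0.29 and -0.36 without scrambled control replicate 1 or RBMS1 knockdown replicate 1 or 2. Nlrc5 (ENSMUSG00000074151), the class I coactivator, had 13.3, 8.44 and 7.05 CPM in the controls and 6.04, 7.83 and 7.27 in the knockdown samples. Scrambled control replicate 1 stood above the other 5 samples, which overlapped. Its log2 fold change was -0.46 (standard error 0.30, interval -1.13 to 0.22, adjusted p = 0.58 by edgeR) and -0.11 without scrambled control replicate 1. Psmb10 and Nlrc5 lie on chromosome 8, where 90.1% of the 624 tested genes had a log2 fold change below 0 (median -0.38). Once the median of each chromosome had been taken off in every sample, their log2 fold changes were -0.13 and -0.07. H2-K1 and H2-D1, on chromosome 17 with a median of -0.09 over 566 tested genes, then had -0.68 and -0.60.

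To describe the exchange of subunits, each inducible subunit was set against the constitutive one that it replaces, as a ratio of counts within each library. Psmb8 made up 4.6%, 3.49% and 3.96% of the counts of Psmb5 in the controls and 1.31%, 2.0% and 2.69% in the knockdown samples. The groups did not overlap, and the ratio was 48.1% of that of the controls (log2 difference -1.06, exact permutation p = 0.1, the smallest possible, and 0.2 after adjustment over the 4 ratios). Psmb9 made up 0.465%, 7.45% and 1.05% of the counts of Psmb6 in the controls and 0.239%, 0.693% and 0.805% in the knockdown samples, with overlap (exact permutation p = 0.4), and its log2 difference of -1.59 ranged from -2.45, without scrambled control replicate 1, to -0.45, without scrambled control replicate 2, and was -1.04 when RBMS1 knockdown replicate 1 was left out. Psmb10 made up 15.9%, 9.90% and 9.70% of the counts of Psmb7 in the controls and 6.41%, 10% and 16.4% in the knockdown samples, with the highest value in RBMS1 knockdown replicate 3 (log2 difference -0.18, exact permutation p = 1.0). That difference was above 0 without scrambled control replicate 1 (0.05) or RBMS1 knockdown replicate 1 (0.15), and it was -0.52 when RBMS1 knockdown replicate 3 was left out.

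**Figure D3:**
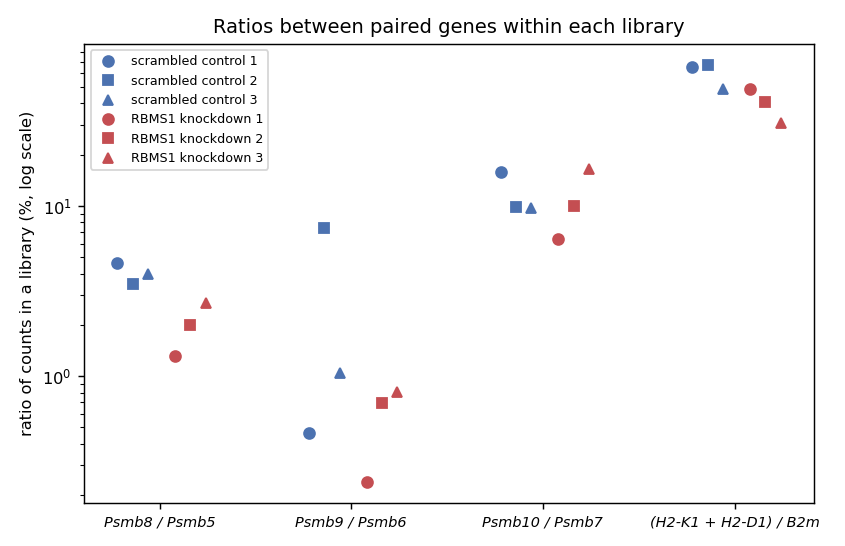
Ratios of counts within each library in percent, on a log axis, for 3 inducible proteasome subunits over their constitutive counterparts and for H2-K1 plus H2-D1 over B2m (blue, scrambled control; red, RBMS1 knockdown; marker shape, replicate number). The groups do not overlap for Psmb8 over Psmb5 and for the heavy chains over B2m, and overlap for the other ratios.

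The constitutive subunits themselves had log2 fold changes of -0.29 for Psmb5, -0.13 for Psmb6 and -0.38 for Psmb7 (adjusted p = 0.529, 0.818 and 0.351 by edgeR). Together with the proteasome activators and assembly factors they formed a list of 12 genes, of which 11 were below 0. Their median was -0.30, and it was -0.09 with the trend with GC content and length removed, 0.06 with library sizes alone, where the median of all genes was 0.37 higher, and -0.41 to -0.14 with each sample left out, the value nearest to 0 without RBMS1 knockdown replicate 2. edgeR, DESeq2 and limma-voom called 0 of them, and 1 (Psmb7) had an unadjusted p under 0.05 in edgeR, against 12.4% of all tested genes. Psme1 and Psme2, which encode the interferon-inducible activator of the proteasome, had log2 fold changes of -0.37 (interval -0.75 to 0.02) and -0.39 (interval -0.88 to 0.10). The ends of the list were the assembly factors Psmg1 at -0.43 and Psmg3 at 0.63.

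Among the other class I heavy chains and class I-like genes, 9 of the 19 found in the table were tested, and 7 of the 9 were below 0. Their median was -0.34, and it was -0.19 and -0.22 without scrambled control replicates 1 and 2, -0.49 without scrambled control replicate 3 and 0.03 with library sizes alone. None was called by edgeR, DESeq2 or limma-voom. Against 12.4% of all tested genes, 1 of the 9 had an unadjusted p under 0.05. This was H2-Q4, a nonclassical heavy chain, with 10.7, 4.96 and 3.61 CPM in the controls and 1.58, 2.69 and 2.64 in the knockdown samples (log2 fold change -1.49, interval -2.55 to -0.44, adjusted p = 0.223 by edgeR). Scrambled control replicate 1 was far above the other controls. H2-T23, whose product presents leader peptides of other class I chains, had 11.4, 11.4 and 12.6 CPM in the controls and 7.19, 6.43 and 10.6 in the knockdown samples, again without overlap (log2 fold change -0.54, interval -1.13 to 0.05). H2-M3 had the highest log2 fold change of the list at 0.35 (interval -0.87 to 1.58), with overlapping samples.

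Transcription factors of class I genes are the RFX and NF-Y complexes, CREB1 and ATF1 at the X and Y boxes, and IRF and NF-kB proteins at the enhancer. Of 13 such genes tested, 0 were called by edgeR, DESeq2 or limma-voom. An unadjusted p under 0.05 was found for 1 of them (12.4% of all tested genes). Their median log2 fold change was -0.15, or -0.20 to -0.06 with each sample left out (nearest to 0 without scrambled control replicate 2, then at -0.08 when RBMS1 knockdown replicate 1 was left out), -0.05 with chromosome medians removed and 0.24 with library sizes alone. The 1 gene was Rfxank, a subunit of the RFX complex (log2 fold change -0.74, interval -1.40 to -0.08, adjusted p = 0.346 by edgeR). Rfxank, which lies on chromosome 8, had 17.2, 31.8 and 18.2 CPM in the controls and 16.5, 13.4 and 9.76 in the knockdown samples. Irf1, which binds the interferon regulatory factor core of these promoters, had 38.3, 46.7 and 40.8 CPM in the controls and 33.8, 31.4 and 33.6 in the knockdown samples. All knockdown values of Irf1 were below the controls (log2 fold change -0.34, interval -0.70 to 0.01, adjusted p = 0.412 by edgeR). Creb1 had the highest value of the list at 0.37 (interval -0.01 to 0.75). Ciita, the class II coactivator, had at most 0.147 CPM in a sample.

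The interferon pathway, which induces class I and immunoproteasome genes, was described with lists of its signaling and target genes. Of 15 genes for interferon receptors and JAK-STAT signaling, 0 were called by edgeR, DESeq2 or limma-voom. Where 12.4% of all tested genes had an unadjusted p under 0.05, 4 of the 15 did. With RBMS1 knockdown replicate 1 left out, edgeR called 3 of them, Usp18 included, in the fit that called 5.94% of all genes. Their median log2 fold change was 0.19 (0.10 without RBMS1 knockdown replicate 1 and 0.09 with chromosome medians removed), with 11 above 0. The highest value was that of Usp18, an inhibitor of interferon signaling, at 1.9, and the lowest that of the cytokine signaling inhibitor Socs3 at -1.44. Of 32 interferon-stimulated genes tested, 29 were above 0 (median 1.19), and edgeR called 1 of them, Herc6, higher in knockdown cells, where 0.315% of all tested genes were called in that direction. At an unadjusted p under 0.05, 18 were higher and 1 lower, against 12.4% of all tested genes in either direction. DESeq2 called 12 of the 40 genes listed, 11 of them higher, against 3.2% of the genes it tested, and limma-voom called 0. Of the same 32 genes, edgeR called 10 with library sizes alone (1.1% of all tested genes) and 7 without a filter on low counts (1.38%), the lower gene Ifi27l2a among these 7. It called 0 with chromosome medians removed (73 calls among all tested genes). The count was also 0 without RBMS1 knockdown replicate 2 (38 calls among all tested genes) or without any single control (12 to 32). In the replicate block it was 2 (Ifit1 and Ifi27l2a), with 39 calls among all tested genes. When RBMS1 knockdown replicate 3 was left out, the 1 call was Ifi27l2a, with 116 calls among all tested genes.

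Herc6, a ubiquitin ligase gene, had 5.13, 4.47 and 4.99 CPM in the controls and 10.9, 11.6 and 17.5 in the knockdown samples (log2 fold change 1.45, standard error 0.28, adjusted p = 0.0695 by edgeR). It kept its call with RBMS1 knockdown replicate 1 left out, and lost it with any other sample left out (adjusted p between 0.142 and 0.252 by edgeR), as well as in limma-voom (0.145), in the replicate block (0.187) and with chromosome medians removed (0.131). The ends of the list were Ifit1 at 3.50 (adjusted p = 0.128) and Ifi27l2a at -1.74 (adjusted p = 0.15, both by edgeR). The list stood highest in RBMS1 knockdown replicate 3. Set against the control mean on a scale of log2(CPM + 0.5), the median of the 32 genes was 0.35, 0.53 and 1.92 in RBMS1 knockdown replicates 1, 2 and 3, and between 0.01 and 0.02 in the controls. The median of the 8 members on the same scale was -0.43, -0.50 and 0.01 in these knockdown samples, and between -0.16 and 0.13 in the controls. RBMS1 knockdown replicate 3 also had the highest B2m, Tap1 and Tapbp of all samples. Its H2-K1 was close to that of RBMS1 knockdown replicate 2 (76.2 and 76.9 CPM), and its H2-D1 was the highest of the knockdown samples (82.4 CPM). Without it, the median log2 fold change of the interferon-stimulated genes was 0.43 and that of the members was -0.55. With RBMS1 knockdown replicate 1 left out, 16 of the 32 interferon-stimulated genes (Ifi27l2a included) and 1 of the 8 members (H2-K1) were called, against 5.94% of all genes tested in that fit, and the medians were 1.49 and -0.27. With scrambled control replicate 1 left out, the median of the members was -0.16.

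**Figure D4:**
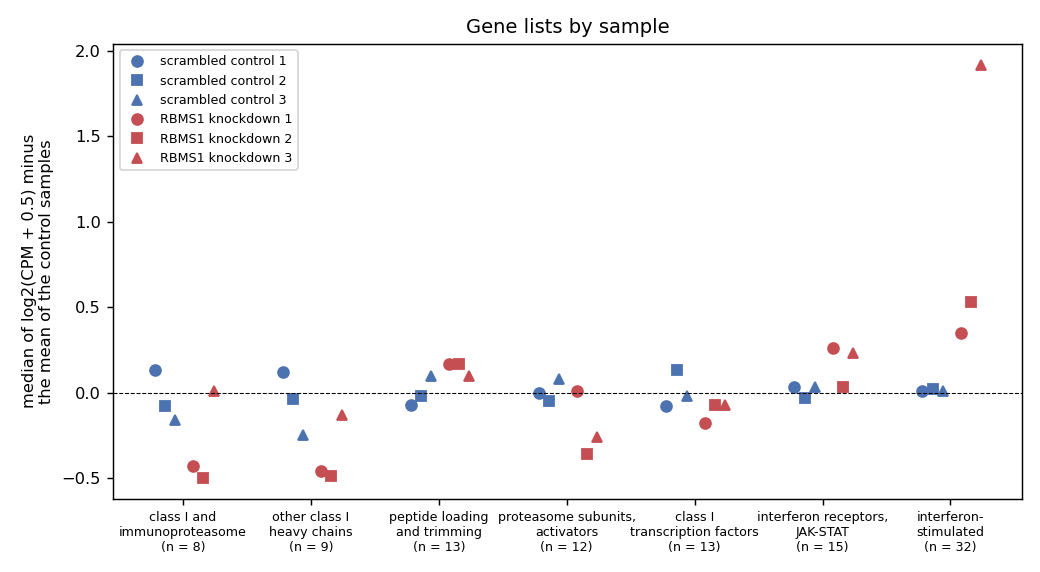
Median over the tested genes of each list of log2(CPM + 0.5), minus the mean of the control samples, in each sample (blue, scrambled control; red, RBMS1 knockdown; marker shape, replicate number; n, genes tested). The interferon-stimulated genes reach 1.92 in RBMS1 knockdown replicate 3, where the class I and immunoproteasome genes are at 0.01, against -0.43 and -0.50 in RBMS1 knockdown replicates 1 and 2.

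Markers of the differentiated state are given beside the heavy chains. Of 13 adipocyte markers tested, 12 were below 0, with a median log2 fold change of -0.43. The median was -0.70 and -0.27 without RBMS1 knockdown replicates 1 and 2, and -0.03 with library sizes alone. The 14 markers found summed to 24400, 25700 and 27000 CPM in the controls and 22700, 13200 and 15700 in the knockdown samples. No marker was at 0 in all samples. Lpl had the largest part of each sum. Its levels were 12300, 12000 and 14500 CPM in the controls and 10200, 5350 and 5600 in the knockdown samples. At an unadjusted p under 0.05, 4 of the 13 were lower and 1 higher. Of all tested genes, 6.98% passed as lower and 12.4% in either direction. edgeR called 1 of the 13 markers, against 1.22% of all tested genes. This was the adipokine gene Retn, with a log2 fold change of -1.67 (adjusted p = 0.0967 by edgeR). Cd36, a fatty acid transporter, had the highest value of the list at 0.72 (adjusted p = 0.183 by edgeR). Retn was called again when RBMS1 knockdown replicate 1 was left out, but not when any other sample was (adjusted p = 0.123 to 0.358 by edgeR). It lies on chromosome 8 and had a log2 fold change of -1.28 (adjusted p = 0.219) with chromosome medians removed, and it also missed the threshold in the replicate block (0.124), with library sizes alone (0.118), with the trend with GC content and length removed (0.102), with RLE size factors (0.102) and with edgeR's earlier estimates (0.105). Without RBMS1 knockdown replicate 1, 7 of the 13 were called, in the fit that called 5.94% of all genes. With all samples, DESeq2 called 4 of the list, against 3.2% of the genes it tested. Plin4, Retn and Lpl were lower and Cd36 higher, and limma-voom called 1 (Retn). The 12 preadipocyte and fibroblast markers summed to between 7550 and 8700 CPM in the controls. In the knockdown samples the sums were 3930, 8170 and 7630, with RBMS1 knockdown replicate 1 the lowest. Col1a1 and Col3a1 had the largest parts of these sums. Their means were 2510 and 3370 CPM in the controls and 1970 and 2860 in the knockdown samples. Of the 11 markers tested, 4 had an unadjusted p under 0.05, all lower, against 6.98% of all tested genes in that direction. The highest log2 fold change of the list was that of Pdgfrb at 0.12. The median was -0.24 over all samples and 0.16 with library sizes alone. It was 0.01, -0.48 and -0.62 with RBMS1 knockdown replicates 1, 2 and 3 left out in turn, and -0.10 without scrambled control replicate 1. The first 3 of these fits called 3 (Pdgfra, Dcn and Lum), 0 and 2 (Dcn and Lum) of the list. Among all tested genes they called 696, 38 and 116. Lum, a collagen-binding proteoglycan, was the 1 marker of that list that edgeR called with all samples (log2 fold change -1.92, adjusted p = 0.0333 by edgeR). Of all tested genes, 0.909% were called lower. Lum lost its call when RBMS1 knockdown replicate 2 was left out, or either of scrambled control replicates 2 and 3 (adjusted p = 0.101 to 0.155 by edgeR). DESeq2 called 3 of that list, Pdgfra, Dcn and Lum, all lower, against 3.2% of the genes it tested, and limma-voom called 1 (Lum). The part of these markers in the levels of H2-K1 and H2-D1 was not tested. In samples of whole cultures, fewer cells of a kind and less RNA per cell cannot be told apart.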

How the data were processed

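RNA of 6 samples of 3T3-L1 adipocytes was sequenced from stranded, ribosomal RNA-depleted libraries. Reads were trimmed (Trim Galore 0.6.7), aligned (STAR 2.7.10a, GRCm38) and quantified (Salmon 1.9.0) by the authors. The estimated counts per gene were deposited without normalization, and the annotation release is not given in the sources used here. After rounding, edgeR 4.0.16 under R 4.3.3 was used for the tests (filterByExpr, TMM, glmQLFit with its newer estimates, glmQLFTest) on condition alone, with Benjamini-Hochberg adjustment over 11440 tested genes. Standard errors are the log2 fold change divided by the square root of F. Ratios were tested with exact permutation (scipy 1.17.1). Positions and exon lengths came from GENCODE M21 (GRCm38). Named are the 10 members, Rbms1, Psmb5, Psmb6, Psmb7, Irf1, called genes of the other lists and each list's highest and lowest gene. Others named (Psme1, Psme2, H2-T23, Ciita, Col1a1, Col3a1, the markers at 0 and genes called under an alternative) were picked with their values known. The members and lists were chosen with earlier results of these data known. Of the listed symbols, H2-Q8, H2-Q9, H2-T9, H2-L and Nrdc matched no row. Alternatives were DESeq2 1.42.0, limma-voom (limma 3.58.1), other scalings and filters, unrounded counts, a replicate block, removal of trends with GC content and length (loess, span 0.3) or of chromosome medians, each sample left out, and, chosen after seeing the data, edgeR's earlier quasi-likelihood estimates. The edgeR step was tested on simulated data.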

Additional observations from a re-analysis of the deposited data

How the results depend on the processing

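Of all tested genes, DESeq2 called 430, a fit without a filter on low counts 268, removal of chromosome medians 73 and the replicate block 39, against 140, and leaving out each sample gave 12 to 696 (the lowest without scrambled control replicate 2, the highest without RBMS1 knockdown replicate 1). Members called were 2 with DESeq2, 0 to 1 with each sample left out, and 0 under every other alternative. The median log2 fold change of the members was -0.13 with chromosome medians removed, 0.01 with library sizes alone, and -0.55 to -0.16 with each sample left out. Rbms1 ranged from -0.92 to -0.52 with each sample left out. Fitted values above 0 were found with library sizes alone for B2m (0.26), Tap1 (0.16), Tap2 (0.13) and Tapbp (0.31), which relative to the median of all genes were -0.11, -0.22, -0.24 and -0.06. B2m was at 0.05 with the trend with GC content and length removed, Tapbp at 0.00 with chromosome medians removed, and with a sample left out Tap1 ranged from -1.07 to 0.07, B2m from -0.26 to 0.00 and Tapbp from -0.30 to 0.07. H2-K1, H2-D1, Psmb10 and Nlrc5 stayed below 0 under all 18 alternatives. The ratio of heavy chains to B2m had a log2 difference of -0.76 to -0.43 with each sample left out, and that of Psmb8 to Psmb5 one of -1.30 to -0.78. Deviations of samples of the same replicate number had correlations of -0.144, 0.078 and -0.028, and those of other pairs ranged from -0.173 to 0.206. With 3 samples in a group this cannot show whether samples of the same number were handled together. In the replicate block no member was called (H2-K1 -0.83, adjusted p = 0.226 by edgeR), and for the ratios the block leaves the difference as it is by construction, with 0.25 as the smallest exact sign-flip p. Depth limits what can be said of Psmb8 and Psmb9, with 30 and 13 counts over the control samples.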

Other observations

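The neighbourhood of the class I genes was examined as well. Between the outer ends of Tapbp and H2-D1 on chromosome 17 (33915899 to 35267499 of GRCm38), 48 other genes were tested. Of these, 28 had a log2 fold change below 0 (median -0.03) and 0 were called by edgeR at an adjusted p of 0.1 or less. H2-K1 (-0.78) and H2-D1 (-0.68) lie in this stretch.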
